A study of Mus musculus with 2 samples.

Results

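Open chromatin was described at 43 mouse genes of the primary cilium and of cystic kidney disease, chosen by name. Their peaks were taken by position from 2 ATAC-seq libraries, an assay in which a transposase cuts accessible DNA. A peak belonged to a gene when its summit lay inside it, or lay within 100 kb and nearer to one of its ends than to those of any other protein-coding gene. By that rule the 43 genes held 187 of 61210 peaks in the Brg1 cKO list and 246 of 77529 peaks in the control list, and they are 43 of 21887 protein-coding genes.

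One library came from Brg1 cKO/cKO and 1 from WT control mouse kidney at E18.5, late in gestation. Brg1, also called Smarca4, is an ATPase of the SWI/SNF (BAF) complexes that move nucleosomes. Both were prepared from 50000 sorted tdTomato cells, which the titles place in the Wnt4 lineage, the descendants of the cells that form nephron epithelium. The cell type label of the control library reads only "control", the labels do not name the Cre driver, and both libraries are entered as transcriptomic although the protocol is ATAC-seq. With 1 library per genotype there is no replicate spread, so no difference between genotypes was tested. Intervals are exact Clopper-Pearson 95% intervals that cover counting error only.

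The primary cilium is a single microtubule-based projection of most epithelial cells, including those of kidney tubules. Its cargo is carried by intraflagellar transport (IFT), its base is gated by the transition zone, and its membrane content is adjusted by the BBSome. Polycystic kidney disease, nephronophthisis, Joubert, Meckel and Bardet-Biedl syndromes arise from mutations in its genes, and many ciliary promoters carry an X-box, the binding motif of RFX transcription factors.

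RefSeq promoter windows of GRCm38.p6, the assembly of mm10, were matched for 37 members and run from 250 bases before to 50 after a start site. The X-box was searched as the arms GTNNCC and GGNNAC with any 2 bases between them, a pattern that reads the same on both strands, and was found in 10 of the 37 members. Of these, 5 are shown: the 4 that begin with GTTGCC on the strand of their gene, and that of Nphp4, which lay farthest from its peak summit. Capitals mark the X-box, up to 10 flanking bases are in lower case, and each is written on the strand of its gene.
Mks1: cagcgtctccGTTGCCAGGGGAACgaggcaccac
Tctn1: ggctgtgactGTTGCCCGGGCAAC
Bbs1: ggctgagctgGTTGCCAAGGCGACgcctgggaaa
Bbs7: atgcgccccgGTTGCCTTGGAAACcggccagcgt
Nphp4: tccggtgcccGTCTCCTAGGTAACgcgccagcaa
The X-box of Mks1 (chr11:87853191-87853204, plus strand) is centred at -18 bases from its start site, that of Tctn1 (chr5:122264411-122264424, minus strand) at 42 bases and that of Bbs1 (chr19:4906613-4906626, minus strand) at 7 bases. The X-box of Bbs7 (chr3:36613497-36613510, minus strand) is centred at -115 bases and that of Nphp4 (chr4:152477911-152477924, plus strand) at -225 bases. Nphp4 has several windows, and the -225 bases are from the start site of the window at chr4:152477892-152478191. Distances of Nphp4 peaks in kb, given below, are from its start site farthest upstream, which is another one. The X-box of Tctn1 is a full palindrome over its 14 bases and ends at the edge of its window, so no bases follow it. The other members with a match were Tmem216, Tctn2, Cep83, Wdr19 and Bbs4.

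A pair of whole windows is shown for contrast, since Pkhd1 had the weakest start-site peak of the 43 genes and Glis3 the lowest share of distal peaks found in both libraries among the members with at least 10 distal control peaks. Capitals in the Pkhd1 window (chr1:20618008-20618307, minus strand) mark, from left to right, a match to an X-box with 3 bases between its arms and a match to a shortened HNF1 motif, GTTAAT and ATT with any 1 base between them. The Glis3 window (chr19:28680028-28680327, minus strand) held neither, nor the full X-box.
Pkhd1: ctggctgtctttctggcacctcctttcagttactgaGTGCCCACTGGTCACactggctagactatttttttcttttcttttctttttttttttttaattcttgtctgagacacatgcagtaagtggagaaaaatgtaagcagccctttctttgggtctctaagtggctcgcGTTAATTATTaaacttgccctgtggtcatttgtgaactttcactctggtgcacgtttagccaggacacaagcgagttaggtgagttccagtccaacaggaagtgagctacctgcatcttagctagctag
Glis3: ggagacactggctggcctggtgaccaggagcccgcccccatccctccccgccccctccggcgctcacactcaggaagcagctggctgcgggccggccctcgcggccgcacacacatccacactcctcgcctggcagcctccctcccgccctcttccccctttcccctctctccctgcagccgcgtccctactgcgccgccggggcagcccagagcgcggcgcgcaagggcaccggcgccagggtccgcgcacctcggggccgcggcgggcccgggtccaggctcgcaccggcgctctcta
The GC content was 43.3% in the Pkhd1 window and 76.3% in the Glis3 window. The CpG dinucleotide, given as its observed over its expected number, stood at 0.284 in Pkhd1 and 0.774 in Glis3.

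Read counts were not part of the lists, so how deeply each library was sequenced is unknown, and the lack of a called peak at a place says nothing of closed chromatin there. Of all peaks, 94.1% of Brg1 cKO peaks overlapped a control peak by at least 1 bp and 74.1% of control peaks overlapped a Brg1 cKO peak. Both libraries had a peak within 1000 bp of the start site of all 8 nephron lineage markers, all 5 podocyte, all 5 stroma and all 5 endothelial markers and 5 of 6 ureteric markers, against 1 of 5 immune and 1 of 5 erythroid markers. A further 2 immune markers, Csf1r and C1qa, had such a peak in control alone. Matching differed more between these marker lists. Podocyte marker peaks matched in 44 of 44 in Brg1 cKO and 41 of 66 in control (62.1%, expected 74.9%), and stroma marker peaks in 42 of 49 in Brg1 cKO (85.7%, expected 93.2%) and 44 of 49 in control (89.8%, expected 74.9%). Nephron lineage marker peaks matched in 77 of 80 in Brg1 cKO and 72 of 106 in control (67.9%, expected 70.2%). Wt1 held 30 of these control peaks, 14 of them matched. Control peaks of endothelial markers matched in 41 of 56 (73.2%, expected 67.2%) and those of ureteric markers in 31 of 39 (79.5%, expected 74.6%). Those of immune markers matched in 14 of 23 (60.9%, expected 65.1%) and those of erythroid markers in 4 of 8 (50.0%, expected 60.1%). An open start site does not place a cell in a type, and the part of other cells in the values below was not tested.

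All 43 members had a start-site peak, within 1000 bp of a start site, in both the Brg1 cKO and the control library. Among all coding genes 66.3% had one in both libraries, 0.228% in Brg1 cKO alone, 1.49% in control alone and 32.0% in neither. Strength was read by dividing each list into 10 equal classes by the authors' -log10 p, with class 10 the most significant. A member's strongest start-site peak was taken as the one with the largest area under the authors' caller curve, not by class. Of the members' strongest start-site peaks, 40 of 43 in Brg1 cKO (93.0%) and 41 of 43 in control (95.3%) were in class 9 or 10, against 67.8% and 72.4% of all start-site peaks of those lists. The members' shares take a single peak per gene, while the list shares take every start-site peak, weaker second ones included. They are therefore not like for like. Pkd1, whose product polycystin-1 is mutated in most dominant polycystic kidney disease, had the most significant start-site peak of the members in each library. Its -log10 p was 12.2 in Brg1 cKO and 12.8 in control.

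The 3 members below class 9 were Pkhd1, Bbs1 and Dcdc2a. Pkhd1 encodes fibrocystin, the protein of recessive polycystic kidney disease. Its start-site peak had a -log10 p of 4.58 in Brg1 cKO (class 2) and 5.24 in control (class 4), the lowest of any member in each library, and was 742 bp wide in Brg1 cKO and 773 bp in control. Bbs1, a BBSome subunit, was in class 7 in both libraries. Dcdc2a encodes a doublecortin domain protein of the ciliary axoneme, and its start-site peak was in class 8 in Brg1 cKO and class 9 in control. None of the 3 was missing from either list.

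Start-site peaks had nearly the same median width in the 2 libraries. For the 41 members whose strongest start-site peaks matched 1 to 1, the median width was 1617 bp in Brg1 cKO and 1614 bp in control, and the median ratio of cKO over control was 0.991, the same as over 14007 matched start-site peaks of all genes (0.991). The Brg1 cKO peak was wider in 18 of 41 members (43.9%), against 41.8% of all pairs. Ratios ran between 0.777 for Dcdc2a, at 1974 bp in Brg1 cKO and 2542 bp in control, and 1.12 for Wdr19, at 1735 bp in Brg1 cKO and 1555 bp in control. Glis3 had the second lowest ratio, at 0.840, with 3337 bp in Brg1 cKO and 3974 bp in control. The summits of 32 of 41 members lay within 50 bp of each other (78.0%, against 82.4% of all pairs). Cep164, a distal appendage protein gene, and Bbs12, a chaperonin-like gene, were left out of the pairs because 2 peaks of one library met 1 peak of the other.

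**Figure D1:**
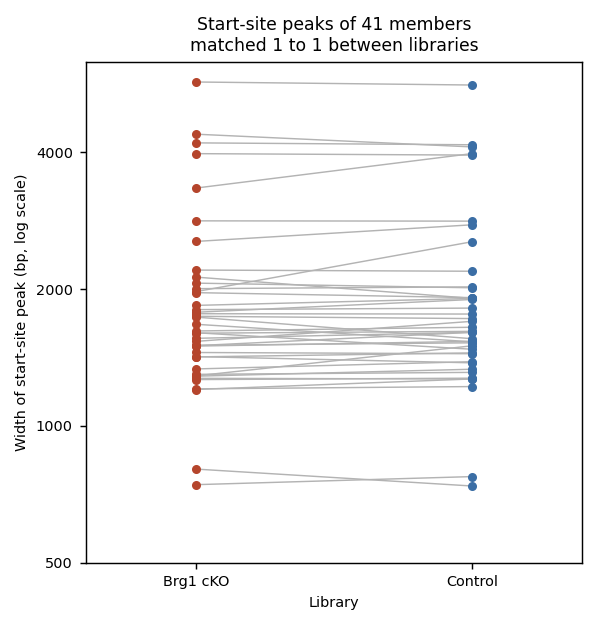
Width in bp (log scale) of the start-site peak of 41 members in the Brg1 cKO library (left) and the control library (right), with a line joining the peaks of 1 gene. Most lines are near level, with medians of 1617 bp in Brg1 cKO and 1614 bp in control, and the steepest line is that of Dcdc2a, at 1974 bp in Brg1 cKO and 2542 bp in control.

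All 10 X-boxes of the members lay inside a start-site peak in both libraries. Of 434 X-boxes of all coding genes, open or not, 334 lay in a peak in Brg1 cKO and 343 in control. Every member had a start-site peak in both libraries and the windows lie close to start sites, so the members' count was largely set beforehand. Their distance to the summit had a median of 57 bp in Brg1 cKO and 79.5 bp in control, with 6 of 10 within 100 bp in Brg1 cKO and 5 of 10 in control. X-boxes of all coding genes that lay in a peak had medians of 85 bp in Brg1 cKO and 94 bp in control, with 55.4% and 51.3% of them within 100 bp in those libraries, so the members' counts lay near the general value. Tctn1, of the tectonic complex of the transition zone, had its X-box 7 bp from the Brg1 cKO summit and 5 bp from the control summit. The X-box of Bbs1 lay 13 bp from the Brg1 cKO summit and 12 bp from the control summit. That of Nphp4, a nephrocystin of the transition zone, lay farthest, 269 bp from the summit in both libraries. Wdr19, an IFT-A subunit, differed most between libraries, at 41 bp in Brg1 cKO and 177 bp in control.

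The 10 of 37 members with an X-box are 27.0%, set beside 2.26% of 17492 coding genes with a window and 2.83% of the 11562 of them with a start-site peak in both libraries. Other ciliary genes that are no members held it in 5 of 29 (17.2%). The single arm GTTGCC, searched on both strands and able to lie within a full X-box, was found in 16 of 37 members (43.2%), against 14.3% of coding genes and 15.0% of those open in both libraries. The 2 X-box arms 1 base apart were found in no member and in 1.18% of coding genes. The 2 X-box arms 3 bases apart were found in 1 of 37 members, Pkhd1, and in 0.823% of coding genes.

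The full HNF1 motif, GTTAAT and ATTAAC with any 1 base between them, was found in no member window and in 0.00572% of coding genes, and its shortened form in 1 member, again Pkhd1, and in 0.452% of coding genes. GC boxes (GGGCGG) were in 24 of 37 members (64.9%) against 49.2% of coding genes and 69.3% of those open in both libraries. The ETS motif CCGGAAG was in 8 members (21.6%) against 12.9% of coding genes and 18.1% of those open in both libraries. The AP-1 motif TGANTCA was in 2 (5.41%) against 8.12% of coding genes and 5.86% of open ones, and TATAAA in 1 (2.70%) against 14.8% of coding genes and 8.76% of open ones. All were searched on both strands, and a match is a run of letters, not a bound site.

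Members' promoter windows had a median GC content of 60.3%, against 56.3% of all coding genes and 61.3% of those open in both libraries. An observed over expected CpG of at least 0.6 was met by 30 of 37 members (81.1%), against 48.3% of coding genes and 71.1% of those open in both. These base content values take the first-listed window of each gene, while a motif match could lie in any of its windows. The Nphp4 window counted here stood at 0.277, and its other windows at 0.898 and 0.647.

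**Figure D2:**
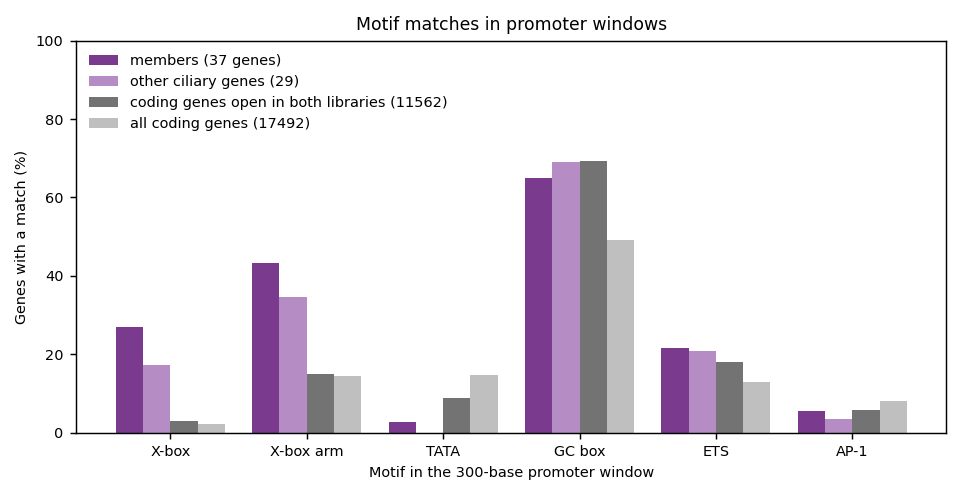
Percentage of genes with at least 1 match to a motif (horizontal axis) in the 300-base promoter window, for 37 members, 29 other ciliary genes, 11562 coding genes with a start-site peak in both libraries and all 17492 coding genes with a window. The X-box bars stand at 27.0% for members and 2.26% for all coding genes, while GC box bars are at 64.9% for members and 69.3% for genes open in both libraries.

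X-box genes as a whole had a start-site peak in 82.8% of 395 genes in Brg1 cKO and 84.3% in control, with 6 open in control alone and 0 in Brg1 cKO alone. Coding genes without an X-box had one in 65.9% of 17097 genes in Brg1 cKO and 67.1% in control. Of those 17097, 236 were open in control alone and 33 in Brg1 cKO alone.

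Several members share their promoter with a neighbour. Of the 37 with a window, 7 had an oppositely transcribed coding gene starting within 1000 bp on their upstream side (18.9%). Among all 17492 coding genes with a window, open or not, 8.48% had one, and the share of open genes alone was not taken. The 7 were Invs with Erp44, Nphp4 with Kcnab2, Iqcb1 with Eaf2, Cep290 with Tmtc3, Rpgrip1l with Fto, Ift140 with Cramp1l and Bbs12 with Cetn4. A start-site peak there cannot be given to 1 gene of the pair. The start-site peak lay nearer to an end of another gene for 6 members in Brg1 cKO and 5 in control, and Cep290, whose protein links microtubules to the membrane in the transition zone, had no other peak, so 0 peaks were assigned to it in either list.

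Of the peaks assigned to members, 182 of 187 Brg1 cKO peaks overlapped a control peak (97.3%, 93.9% to 99.1%) and 181 of 246 control peaks overlapped a Brg1 cKO peak (73.6%, 67.6% to 79.0%). The 5 Brg1 cKO peaks without a match are 2.67% of the members' peaks, against 5.92% of all Brg1 cKO peaks, and the 65 control peaks without one are 26.4%, against 25.9% of all control peaks. Given the share of all peaks of the same class and position, 93.8% of the Brg1 cKO peaks and 73.4% of the control peaks would have a match, so the members stood 3.49 points above that for Brg1 cKO peaks and 0.22 points above for control peaks. The difference for Brg1 cKO peaks was -0.19 points once the control list was cut to the length of the Brg1 cKO list.

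Every unmatched member peak was distal, that is, farther than 1000 bp from the start site of any coding gene. In each list, the 43 assigned peaks at a member's own start site and the 3 at another gene's all had a match, where 0.565% of all Brg1 cKO start-site peaks and 4.12% of all control start-site peaks had none. Of the distal peaks, 136 of 141 in Brg1 cKO (96.5%) and 135 of 200 in control (67.5%, 60.5% to 73.9%) had a match. The unmatched share was 3.55% of Brg1 cKO and 32.5% of control distal peaks of members, against 7.61% and 31.2% of all distal peaks of those lists. Distal control peaks inside a member matched in 101 of 150 and those outside in 34 of 50.

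Matching followed strength in the members as in all peaks. In Brg1 cKO, 51 of 56 distal peaks of classes 1 to 3 (91.1%), 52 of 52 of classes 4 to 6 and 33 of 33 of classes 7 to 10 had a match, against 81.9%, 97.9% and 99.9% of all distal peaks. In control, 36 of 78 (46.2%), 45 of 65 (69.2%) and 54 of 57 (94.7%) had one in the same classes, against 42.1%, 74.3% and 95.6% of all distal peaks. In each of these control classes, the value of all distal peaks lay inside the members' interval. Unmatched distal peaks were narrower, with a median of 528 bp in Brg1 cKO and 569 bp in control, against 818 bp and 890 bp for the matched ones of those lists.

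**Figure D3:**
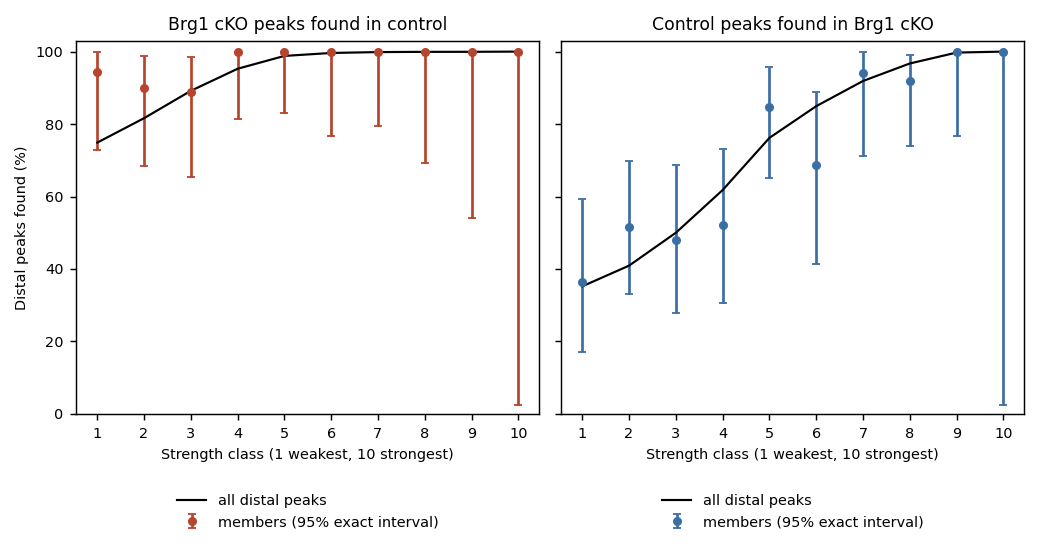
Percentage of distal peaks overlapping a peak of the other library (vertical axis) by strength class within the list (1 weakest, 10 strongest), for Brg1 cKO peaks (left) and control peaks (right); points are member peaks with exact 95% intervals, and lines are all distal peaks. Control points climb along the line, with 36 of 78 member peaks of classes 1 to 3 and 54 of 57 of classes 7 to 10 matched.

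The members were divided into genes with peaks at the start site alone and genes with distal peaks. In Brg1 cKO 16 of 43 members (37.2%) and in control 14 of 43 (32.6%) had no assigned peak but their start-site peak, against 33.9% of open coding genes in Brg1 cKO and 27.9% in control. The 14 were Pkd2, Cep290, Mks1, Tmem216, B9d1, B9d2, Cep83, Wdr19, Ift88, Ift172, Kif3a, Bbs2, Bbs4 and Bbs7, and in Brg1 cKO they were joined by Tctn2 and Bbs12. The median length of the 14 was 38.3 kb, against 54.9 kb for the other members. Open coding genes in control differed in the same direction, at 12.8 kb with start-site peaks alone and 30.0 kb with other peaks. As both lists entered this division, it carries no test. Of the 43 genes, 0 had more peaks in Brg1 cKO than in control, 24 had equal numbers and 19 had fewer in Brg1 cKO. The same count over all coding genes was not taken, and the Brg1 cKO list is shorter as a whole, at 61210 peaks against 77529. Members had a median of 2 peaks in Brg1 cKO and 3 in control, where all coding genes had 1 in Brg1 cKO and 2 in control.

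**Figure D4:**
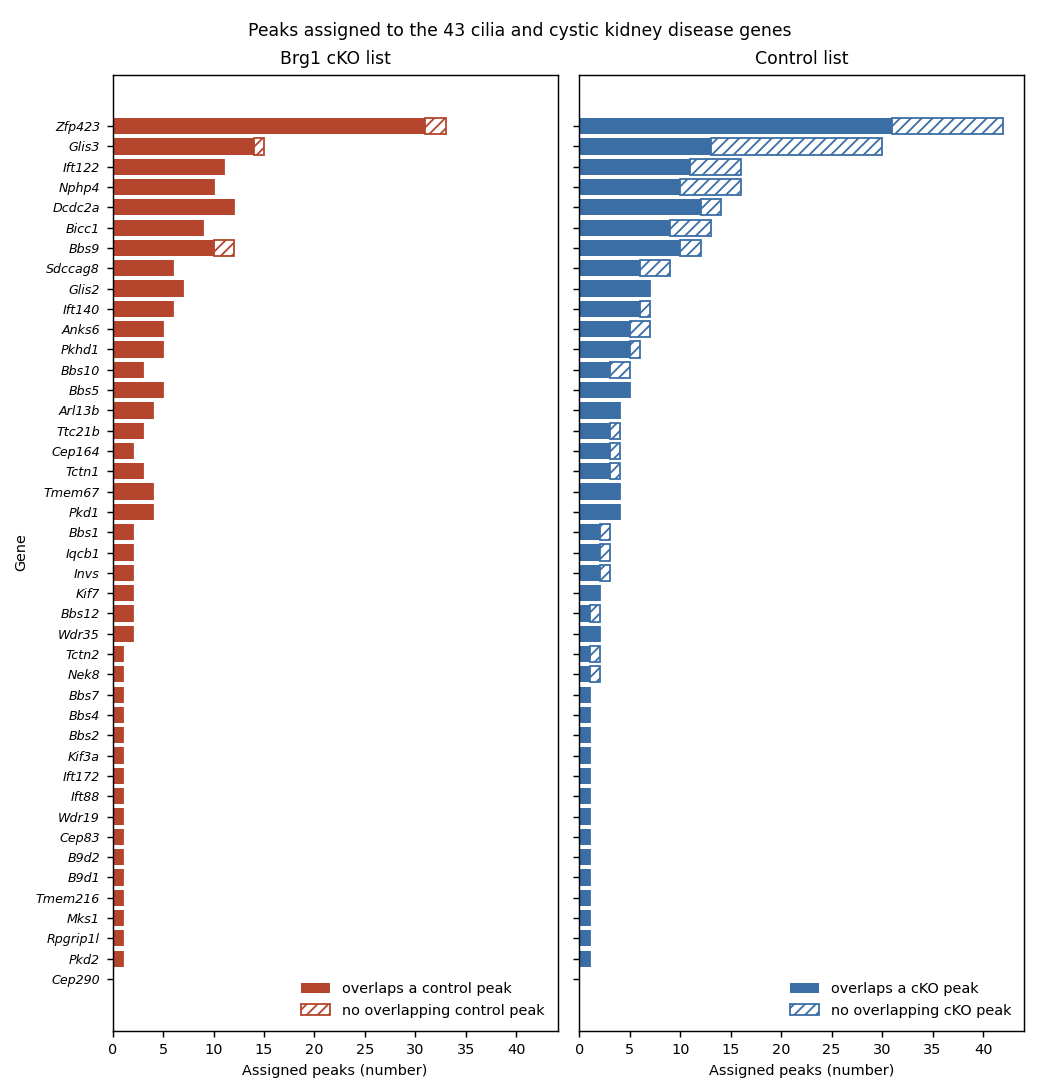
Number of peaks assigned to each of the 43 members (vertical axis, ordered by control peaks) in the Brg1 cKO list (left) and the control list (right); filled bars are peaks overlapping a peak of the other library and hatched bars are peaks that do not. Zfp423 (33 in Brg1 cKO and 42 in control) and Glis3 (15 in Brg1 cKO and 30 in control) are the longest bars, and the hatched part is longest for Glis3 in control.

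Among the polycystins and fibrocystin, Pkd1 had 4 peaks in Brg1 cKO and 4 in control, all matched. Pkd2, which encodes the calcium-permeable channel partner of polycystin-1, had 1 start-site peak in each list. Pkhd1 spans 560 kb and had 5 peaks in Brg1 cKO, all matched, and 6 in control, 5 of them matched. Its distal control peak without a match lay 219.5 kb into the gene, in class 2. Both libraries had a Pkhd1 peak just upstream, at -1.5 kb from the start site, that was in class 5 in each list, above the start-site peak itself.

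The inversin compartment, a segment of the proximal cilium, is formed by Invs, Nek8 and Anks6. Invs had 2 peaks in Brg1 cKO and 3 in control. Nek8, a kinase gene, had 1 in Brg1 cKO and 2 in control, beside the start-site peak it shares with Tlcd1. Anks6, an ankyrin repeat partner of Nek8, had 5 in Brg1 cKO and 7 in control. Together they matched 6 of 6 distal Brg1 cKO peaks and 6 of 10 distal control peaks, where 66.7% was the expected control share.

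In the transition zone, 15 of 15 distal Brg1 cKO peaks and 15 of 24 distal control peaks matched (62.5%, expected 68.5%). Of the 24, 15 belong to Nphp4, with 10 peaks in Brg1 cKO and 16 in control. Its matched peaks included one at -41.7 kb, upstream of its start, with a -log10 p of 7.74 in Brg1 cKO and 8.10 in control. The 6 Nphp4 control peaks without a match lay up to 109.7 kb from the start, the most significant at 56.4 kb with a -log10 p of 5.88. The B9 domain gene Mks1 and its partners B9d1 and B9d2, and Tmem216, which is mutated in Joubert and Meckel syndromes, had 1 matched start-site peak each and no other. Tmem67, the Meckelin gene, had 4 peaks in each list, all matched.

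The centriole and distal appendage genes matched 6 of 6 distal Brg1 cKO and 6 of 10 distal control peaks (60.0%, 26.2% to 87.8%, expected 74.2%), the widest shortfall of any role group. Sdccag8, a centrosomal gene of nephronophthisis, had 6 peaks in Brg1 cKO and 9 in control. Its 3 control peaks without a match lay 63.3, 148.5 and 197.3 kb into the gene. Cep83, needed to dock the mother centriole at the membrane, had its start-site peak alone.

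For IFT-A, the complex of retrograde transport, 16 of 16 distal Brg1 cKO peaks and 16 of 23 distal control peaks matched (69.6%, expected 58.8%). Ift122 had 11 peaks in Brg1 cKO and 16 in control, and its 5 unmatched control peaks were at -6.2 kb and between 25.6 and 71.6 kb from its start. The strongest of them, at 71.6 kb, had a -log10 p of 6.13. Ift140 had 6 peaks in Brg1 cKO and 7 in control, 2 of which in each list lay at the start site of another gene, nearest to Tmem204. Wdr35 had 2 matched peaks in each list. Ttc21b had 3 in Brg1 cKO and 4 in control. The IFT-B genes Ift88 and Ift172, of anterograde transport, and the motor subunit Kif3a had 1 matched start-site peak each and no distal peak in either list.

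BBSome genes and their chaperonins matched 16 of 18 distal Brg1 cKO peaks and 16 of 22 distal control peaks (72.7%, expected 62.5%). Bbs9, a scaffold subunit, spans 413 kb and had 12 peaks in each list, 10 of them matched in each. Its distal control peaks matched in 9 of 11 (81.8%), against 51.4% expected from their classes. That difference of 30.4 points was above that of 1520 of the 1529 coding genes with at least 10 distal control peaks. It rests on 11 peaks, so the place of Bbs9 among genes is a description. Distal Brg1 cKO peaks of Bbs9 also matched in 9 of 11 (81.8%), there below the 88.4% expected. Its Brg1 cKO peaks without a match lay 47.9 and 153.9 kb into the gene, in classes 1 and 2, and its control ones at 325.1 and 462.1 kb, both in class 2.

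Bbs10, which encodes a chaperonin-like factor in BBSome assembly, had 3 peaks in Brg1 cKO and 5 in control. It held the most significant unmatched member peak, at chr10:111339101-111340150, 40.9 kb from its start, which had a -log10 p of 7.61 in control (class 8) and no overlapping peak in Brg1 cKO. Bbs5 had 5 matched peaks in each list, and Bbs2, Bbs4 and Bbs7 had their start-site peak alone.

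Of the other axoneme and membrane genes, 15 of 15 distal Brg1 cKO and 15 of 17 distal control peaks matched (88.2%, expected 71.2%). Dcdc2a had 12 peaks in Brg1 cKO and 14 in control. The series between 11.4 and 59.7 kb into Dcdc2a held 9 distal peaks in Brg1 cKO, all matched, and its 2 unmatched control peaks, at 54.8 and 94.6 kb, were both in class 1. Arl13b, a small GTPase of the ciliary membrane, had 4 matched peaks in each list, and Kif7, a kinesin of Hedgehog signalling at the ciliary tip, had 2.

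The nuclear and RNA-binding regulators held more distal peaks than any other group of members, 58 of 141 in Brg1 cKO and 86 of 200 in control. Their matches were 55 of 58 in Brg1 cKO (94.8%, expected 93.3%) and 54 of 86 in control (62.8%, 51.7% to 73.0%, expected 70.8%). Glis2 and Glis3 are Krüppel-like zinc finger factors, Zfp423 is a zinc finger factor of nephronophthisis, and Bicc1 is an RNA-binding protein whose loss gives polycystic kidneys in mice.

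Glis3, which is mutated in neonatal diabetes with cystic kidneys and spans 421 kb, had 15 peaks in Brg1 cKO and 30 in control. Of its distal peaks, 13 of 14 in Brg1 cKO and 12 of 29 in control matched (41.4%), against 66.6% expected for the control peaks. The difference of -25.2 points was lower in 11 of the 396 coding genes with at least 20 distal control peaks (2.78%) and in 68 of the 1529 with at least 10 (4.45%). By strength, 9 of its 19 distal control peaks of classes 4 to 10 and 3 of 10 of classes 1 to 3 matched. Glis3 was singled out with earlier results of these data known, so its place among genes is a description. The podocyte markers, as given above, also stood below their expected control share, and their part in the Glis3 value was not tested.

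The strongest of the 17 unmatched Glis3 control peaks lay 38.9 kb into the gene at chr19:28640716-28641475, with a -log10 p of 7.07 (class 8). Others lay at 346.9 kb, with a -log10 p of 6.47, and beyond the 3' end at 489.6 kb, with 6.20. Over the 5' end of the gene, Brg1 cKO peaks were called at 17.4 and 33.6 kb, both matched, while unmatched control peaks were called at 19.0, 21.9, 30.4, 38.9, 43.7 and 51.3 kb. The 1 unmatched Brg1 cKO peak lay at 99.7 kb, in class 3. The start-site peak was matched and was in class 9 in both libraries.

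Zfp423 had the most peaks, 33 in Brg1 cKO and 42 in control, over a 300.2 kb gene. Its distal peaks matched in 29 of 31 in Brg1 cKO and 29 of 40 in control (72.5%, expected 74.2%). By strength, 26 of 29 distal control peaks of classes 4 to 10 and 3 of 11 of classes 1 to 3 matched. The start-site peak of Zfp423 was the widest of the members, at 5713 bp in Brg1 cKO and 5626 bp in control. Both unmatched Brg1 cKO peaks lay before the gene, at -5.5 and -53.0 kb from its start, in classes 2 and 3.

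Bicc1 had 9 peaks in Brg1 cKO, all matched, and 13 in control, with 8 of 12 distal ones matched (66.7%, expected 63.1%). Its 4 unmatched control peaks were all in classes 1 and 2, and all 7 distal control peaks of classes 4 to 10 matched. Glis2 had 7 peaks in each list, all matched, among them one at -7.5 kb from its start with a -log10 p of 12.0 in Brg1 cKO and 12.4 in control. A further Glis2 peak lies at its far end, and its nearest gene is Pam16. Since both ends of Glis2 stood in for its start site, that peak counts among the 43 at a member's own start site in each list.

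**Figure D5:**
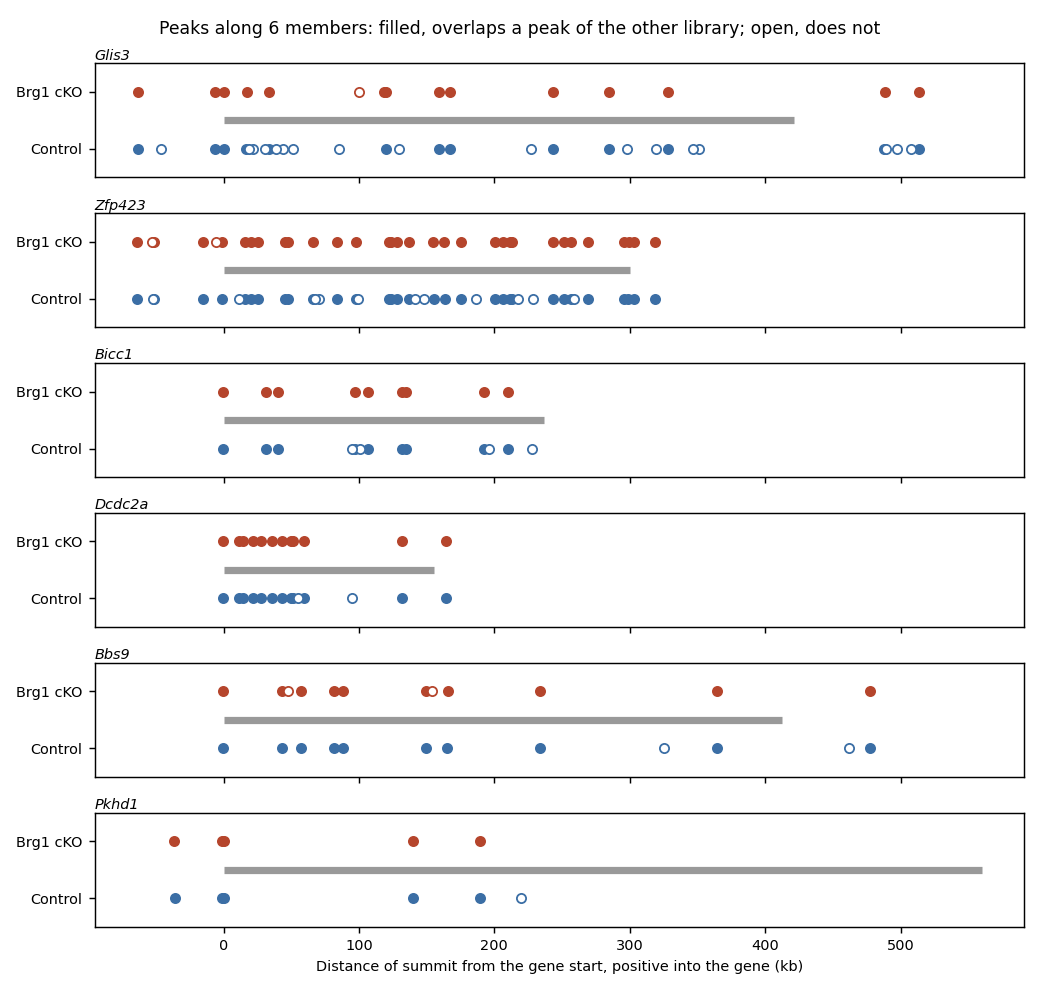
Peak summits along 6 members by distance from the gene start in kb (positive into the gene), with Brg1 cKO peaks above and control peaks below the grey gene body; filled points overlap a peak of the other library and open points do not. Glis3 has 17 open control points, inside the gene and beyond both of its ends, while Bicc1 has 4 and Dcdc2a 2.

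Glis3 and Zfp423 together held 28 of the 65 unmatched control peaks (43.1%), where they held 72 of the members' 246 control peaks (29.3%) and 69 of the 200 distal ones (34.5%). At least 1 unmatched peak was held by 3 members in Brg1 cKO (6.98%) and 21 in control (48.8%), against 12.8% in Brg1 cKO and 44.6% in control of the coding genes open in both libraries. The mean number of control peaks was 5.72 for members and 4.69 for those genes, but the median was 3 in both sets. Without Glis3, a setting chosen after its values were seen, the members matched 123 of 127 distal Brg1 cKO peaks (96.9%) and 123 of 171 distal control peaks (71.9%). The difference from the expected control share was then 4.08 points, where it was -0.16 points with Glis3.

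Genes of the same pathways outside the 43 were taken from lists chosen by function. Of 36 other ciliary transport and transition zone genes, 36 had a start-site peak in both libraries, and 98 of 102 Brg1 cKO peaks and 98 of 123 control peaks matched (79.7%, expected 76.6%). Of 21 other cystic and tubulointerstitial disease genes, 19 were open in both, Umod and Pkd1l1 in neither, with 58 of 59 Brg1 cKO (98.3%, expected 95.1%) and 58 of 76 control peaks (76.3%, expected 73.9%) matched. Of 10 transcription factors of ciliary genes, 8 were open in both, Rfx6 in neither, and Gmnc, a geminin family regulator of multiciliated cells, in control alone by a single unmatched peak. Their control peaks matched in 30 of 37 (81.1%, expected 83.3%). All 14 motile cilia genes were open in both, with 43 of 46 Brg1 cKO peaks (93.5%, expected 95.5%) and 43 of 62 control peaks (69.4%, expected 75.2%) matched, below the expected share in both.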

How the data were processed

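Per the submitters' processing notes, the build is mm10 and the tools are Genrich, SAMtools and Trim Galore; the sources used here do not give versions, aligner, duplicate handling or read-end shifts. The files are 1 narrowPeak list per library. Their deposited score was not used. The deposited signal, the area under the authors' caller curve, served as another ranking of strength and ordered peaks of equal -log10 p. It also chose the start-site peak of a member that had more than 1. The authors' -log10 p ranked peaks within a list and the deposited -log10 q (lowest 1.35 in Brg1 cKO and 1.42 in control) set a stricter filter; neither was compared between libraries. The deposited summit offset, another column, placed each summit.

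A peak was found when it overlapped a peak of the other list by at least 1 bp. Start sites came from the strand in the RefSeq promoter table (GRCm38.p6) for 37 members; for the 6 without an entry (Anks6, Tmem67, Sdccag8, Ift122, Glis2, Bicc1) both gene ends were used, and distances are from the end with the larger control peak. A peak within 1000 bp of a start site was a start-site peak, any other distal. The expected share averages, over the members' peaks, the share found in the whole list for that strength class (10 per list) and position. Coordinates are 1-based.

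All 43 members could be named. Those with 8 or more control peaks were described most fully, and from other lists up to 5 genes with a start-site peak in 1 library alone; others were named after their values were seen. The members, gene lists and tests were chosen with earlier results of these data known, and the motif letters after peak values were seen. Scripts in Python 3.11.15 with pandas 2.3.3 and scipy 1.17.1 were tested on simulated data.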

Additional observations from a re-analysis of the deposited data

How the results depend on the processing

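Of 89 alternative values for 13 results, 79 stayed within the interval or count limit of the value as reported, and 10 moved out of it. Cutting the control list to the length of the Brg1 cKO list moved most: matched member peaks were then 83.4% of Brg1 cKO and 82.0% of control peaks, distal ones 78.7% of Brg1 cKO and 76.4% of control peaks, and the difference from the expected share changed sign for Brg1 cKO peaks, to -0.19 points for all (3.49 as reported) and -0.20 points for distal ones (4.48 as reported). Overlap of 50% of both peaks gave 93.0% for all and 91.5% for distal Brg1 cKO peaks. The more significant 50% of each list gave 60.3% for distal control peaks. Without the 3 members with the most control peaks (Zfp423, Glis3 and Ift122, level with Nphp4), 79.7% of control peaks matched. The differences near 0 for control peaks took either sign across settings. Shorter lists hold fewer peaks to overlap; the cause of the other moves was not tested. The Glis3 distal control share was 33.3% to 43.5% and its difference -29.9 to -23.8 points over all settings, which for Glis3 were chosen after its values were seen. Members open in both libraries were 43, or 41 with both gene ends as start sites. Unknown depth limits every count of unmatched peaks. No paired analysis was possible because each genotype has 1 library and no test was run.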
